A study of Mus musculus with 13 samples.

Results

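The 10 genes described here encode the machinery that stores and breaks down triglyceride in fat cells: Adrb3, Pde3b, Pnpla2, Abhd5, G0s2, Lipe, Mgll, Plin1, Cidec and Aqp7. They were taken by gene symbol from the deposited table, 10 of its 54532 genes, and each symbol had 1 row. The set was chosen with earlier results of these data known. Expression was measured as FPKM (read fragments scaled by gene length and by sequencing depth) in inguinal white adipose tissue, the fat pad under the skin of the groin, with 1 library per mouse and 13 mice. The SF_HPD group held 5 mice whose sleep was fragmented and whose diet was rich in protein (50% of energy from protein, 12% from fat and 38% from carbohydrate). The SF_ConD group held 5 mice with fragmented sleep on normal chow, and the SC_ConD group 3 mice with normal sleep on normal chow. All mice were fasted for 12 h before the tissue was taken, so every value is that of fasted fat and a fed level was not analysed here. The sources used here do not give strain, sex, age or the length of sleep fragmentation. The title of the study names adipose tissue inflammation after chronic sleep fragmentation and its change by a high-protein diet.

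White fat cells hold triglyceride in 1 large droplet, and fasting releases it as fatty acids and glycerol. Noradrenaline acts on beta-adrenergic receptors, cyclic AMP rises, and protein kinase A phosphorylates both the droplet coat protein perilipin 1 and hormone-sensitive lipase. Phosphorylated perilipin 1 frees the co-activator ABHD5, which switches on adipose triglyceride lipase, and lipases then remove the fatty acids in turn. Much of this control works on proteins, so transcript levels describe the supply of the machinery and not the rate of lipolysis.

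Libraries of the same group differed in tissue content and in transcript-length profile, and 1 library stood apart. Reads on genes, recovered from the FPKM values, ran from 14815592 to 18303302 per library. Genes of the mitochondrial genome took 2.82% to 25.5% of these reads in SF_HPD, 11.3% to 33.2% in SF_ConD and 7.19% to 16.8% in SC_ConD. The part of this difference in the levels of the 10 genes was not tested. The mean log2(FPKM + 1) of 11 adipocyte markers outside the 10 genes was 5.24 in the library labelled SF_HPD 2 and 8.38 to 10.2 in the other 12 libraries. That library also held 22355 FPKM summed over 7 genes of bladder epithelium, a list chosen after its values were seen, against 0.339 to 68.6 FPKM in the other libraries. Group differences that involve SF_HPD are therefore given with and without SF_HPD 2. Markers of B cells and lymph nodes were high in 5 libraries (SF_HPD 4 and 5 and SF_ConD 1, 4 and 5), liver transcripts in 2 (SC_ConD 2 and 3), and skeletal muscle markers in SF_HPD 4 and SC_ConD 3. In 4 libraries (SF_HPD 1 and 4, SF_ConD 3 and SC_ConD 1) the deviation of a gene from its mean rose with gene length. Spearman rho was above 0.3 there, here called a length trend, and -0.44 to 0.03 in the other libraries. The same 4 libraries had the highest means of 4 endothelial markers, 4.96 to 5.62 in log2(FPKM + 1), against 1.02 to 3.96 in the others.

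All 10 genes were well expressed in fat, and their order was led by Cidec, whose protein fuses small droplets into large ones. By median FPKM over 13 libraries the order was Cidec (1945), Pnpla2 (485), G0s2 (164), Plin1 (127), Lipe (115), Adrb3 (71.3), Mgll (67.9), Pde3b (35.2), Aqp7 (31.4) and Abhd5 (28.9). Cidec lay above Pnpla2 in 13 of 13 libraries, with a log2 ratio of 0.12 to 2.96. Lipe lay above Adrb3 in 12 of 13 libraries, and Mgll above Pde3b in 12 of 13. The other neighbours crossed: Pnpla2 lay above G0s2 in 10 libraries of 13, G0s2 above Plin1 in 9, Plin1 above Lipe in 8, Adrb3 above Mgll in 4, Pde3b above Aqp7 in 7, and Aqp7 above Abhd5 in 8. Outside SF_HPD 2, Cidec was at or above the 99.3 percentile of the 14421 genes kept (those that reached 1 FPKM in 3 or more libraries) in every library, and Pnpla2 at or above the 97.2 percentile. Abhd5, the lowest of the 10 by median, still lay at or above the 69.5 percentile in those 12 libraries.

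**Figure D1:**
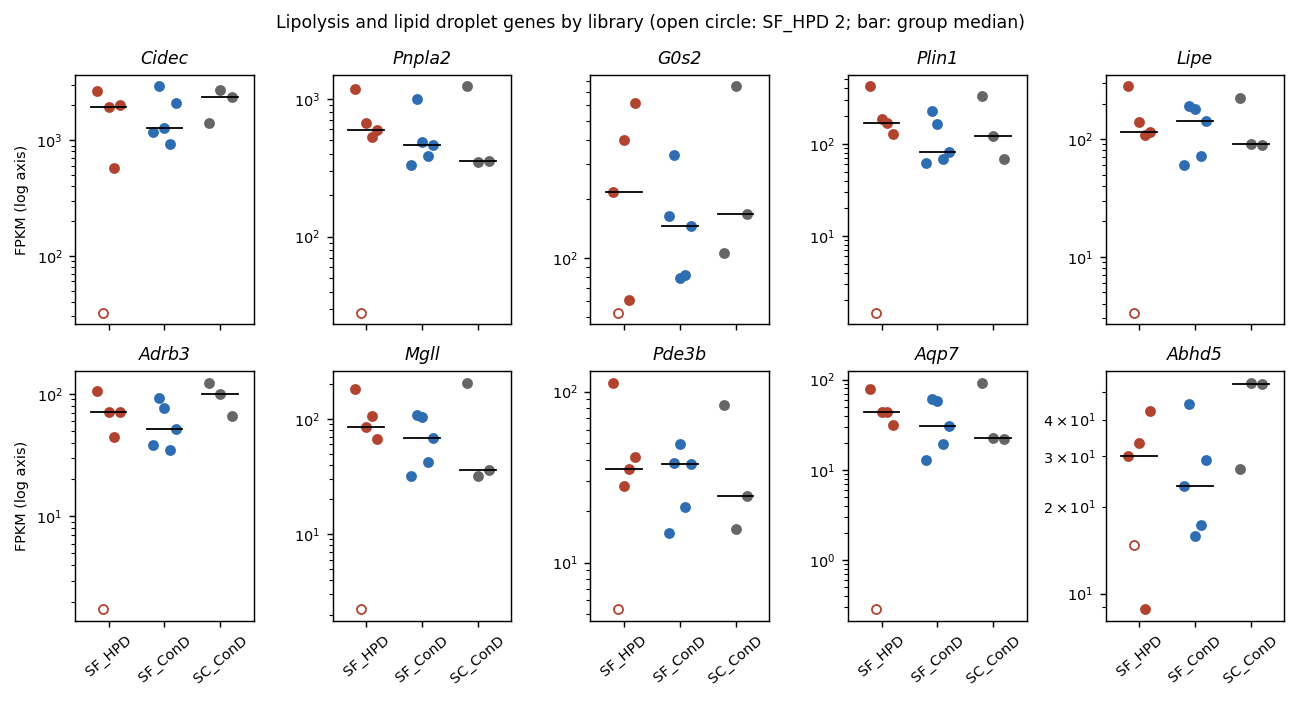
FPKM of each of the 10 genes on a log axis, with 1 point per library, SF_HPD, SF_ConD and SC_ConD from left to right, and a bar at the group median; the open circle is SF_HPD 2. The open circle is the lowest point in every panel except that of Abhd5, where SF_HPD 4 at 8.83 FPKM lies below it at 14.8 FPKM, and the groups overlap in every panel.

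The first step of triglyceride breakdown rests on Pnpla2, which encodes adipose triglyceride lipase, on Abhd5, which encodes its co-activator, and on G0s2, which encodes its inhibitor. Pnpla2 (ENSMUSG00000025509) lies on the plus strand of chromosome 7 at 141455198 to 141460743, Abhd5 (ENSMUSG00000032540) on the plus strand of chromosome 9 at 122351608 to 122381524, and G0s2 (ENSMUSG00000009633) on the minus strand of chromosome 1 at 193272161 to 193273217, all on GRCm38. On the FPKM scale without SF_HPD 2, Pnpla2 varied apart from Abhd5 and G0s2, which varied together. The 250 bases before the RefSeq start of each gene are shown because the lipase, its co-activator and its inhibitor act on the same step. They are from RefSeq on GRCm38.p6, 5′ to 3′ on the strand of the gene, at chr7:141454938-141455187 (plus) for Pnpla2, chr9:122351366-122351615 (plus) for Abhd5 and chr1:193273189-193273438 (minus) for G0s2. Capitals mark the motifs found on either strand, the GC box (GGGCGG, or CCGCCC), the cyclic AMP response element half-site (TGACG, or CGTCA) and the nuclear receptor half-site (AGGTCA, or TGACCT).
Pnpla2: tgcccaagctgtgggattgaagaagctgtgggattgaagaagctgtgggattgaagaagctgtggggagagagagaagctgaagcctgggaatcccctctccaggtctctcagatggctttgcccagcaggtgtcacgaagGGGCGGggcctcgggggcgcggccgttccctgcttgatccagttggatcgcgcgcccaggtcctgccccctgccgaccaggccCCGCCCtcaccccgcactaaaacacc
Abhd5: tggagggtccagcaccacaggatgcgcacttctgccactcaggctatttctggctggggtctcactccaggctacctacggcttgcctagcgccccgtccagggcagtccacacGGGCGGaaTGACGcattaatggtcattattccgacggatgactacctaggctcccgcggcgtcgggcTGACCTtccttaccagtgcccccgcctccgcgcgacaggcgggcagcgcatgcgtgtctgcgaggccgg
G0s2: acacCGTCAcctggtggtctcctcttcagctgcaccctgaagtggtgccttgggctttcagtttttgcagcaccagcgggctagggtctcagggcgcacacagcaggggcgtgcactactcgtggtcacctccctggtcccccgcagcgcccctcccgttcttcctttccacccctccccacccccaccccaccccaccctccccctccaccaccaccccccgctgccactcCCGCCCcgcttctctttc
Pnpla2 held 2 GC boxes, at 109 to 104 and at 26 to 21 bases before the start. Abhd5 held a GC box at 136 to 131, a cyclic AMP half-site at 128 to 124 and a nuclear receptor half-site at 69 to 64 bases before it. G0s2 held a cyclic AMP half-site at 246 to 242 and a GC box at 18 to 13 bases before it. Promoters of 8 of the 10 genes were matched, all but Adrb3 and Pde3b. The GC box was in 4 of these 8 (Abhd5, G0s2, Lipe and Pnpla2) and in 32.7% of 32851 RefSeq promoters of the same length. The cyclic AMP half-site was in 2 of 8 (Abhd5 and G0s2) and in 17.8% of all promoters, and the nuclear receptor half-site in 2 of 8 (Abhd5 and Aqp7) and in 14.0%. The E-box CACGTG was in 2 of 8 (Lipe and Mgll) and in 6.02% of all, and the forkhead site GTAAACA in 1 of 8 (Mgll) and in 3.17%. The full cyclic AMP element TGACGTCA, which holds the half-site, was in 0 of 8 and in 1.55% of all, and the direct repeat AGGTCANAGGTCA, which holds the nuclear receptor half-site, in 0 of 8 and in 0.0335%. A match is a run of letters and not a shown binding site. Positions count from the RefSeq start, which can differ from the deposited gene span. The windows of Abhd5, G0s2, Plin1 and Aqp7 run partly into those spans, and the G0s2 GC box lies within the G0s2 span. The Lipe window lies wholly within the Lipe span.

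Pnpla2 was at 1182, 28.0, 672, 529 and 596 FPKM in SF_HPD 1 to 5, at 333, 1000, 485, 385 and 463 FPKM in SF_ConD 1 to 5, and at 1240, 351 and 354 FPKM in SC_ConD 1 to 3. The lipase was high in 1 library of each group, low in SF_HPD 2, and the groups overlapped. Its mean was 602 ± 411 FPKM in SF_HPD (745 ± 297, n = 4, without SF_HPD 2), 533 ± 268 FPKM in SF_ConD and 648 ± 512 FPKM in SC_ConD (SD, n = 5, 5 and 3). Abhd5 was at 30.0, 14.8, 33.1, 8.83 and 42.7 FPKM in SF_HPD, at 23.6, 45.4, 15.8, 17.2 and 28.9 FPKM in SF_ConD, and at 27.0, 53.7 and 52.9 FPKM in SC_ConD. The co-activator was highest in SC_ConD 2 and 3, the libraries with liver transcripts, while SC_ConD 1 lay within the range of both sleep-fragmented groups. Its mean was 25.9 ± 13.9 FPKM in SF_HPD (28.7 ± 14.3, n = 4, without SF_HPD 2), 26.2 ± 12.0 FPKM in SF_ConD and 44.6 ± 15.2 FPKM in SC_ConD.

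G0s2 was at 216, 52.4, 397, 60.9 and 615 FPKM in SF_HPD, at 164, 335, 79.0, 81.4 and 145 FPKM in SF_ConD, and at 106, 753 and 167 FPKM in SC_ConD. The inhibitor was the most variable of the 10 genes among the 12 libraries without SF_HPD 2, with a 12.4-fold range, against 3.55-fold for Adrb3 and 3.72-fold for Pnpla2. High and low libraries occurred in all 3 groups. The mean of G0s2 was 268 ± 239 FPKM in SF_HPD (322 ± 239, n = 4, without SF_HPD 2), 161 ± 104 FPKM in SF_ConD and 342 ± 357 FPKM in SC_ConD. G0s2 lies wholly within the span of Lamb3 on the other strand. Lamb3, a laminin gene of epithelium, was at 3.91 FPKM in SF_HPD 2 and at no more than 2.05 FPKM elsewhere, far below G0s2, and the sources used here do not say whether counting used the strand.

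The later steps belong to Lipe (ENSMUSG00000003123, chromosome 7, 25379527 to 25398710, minus strand), which encodes hormone-sensitive lipase, the diglyceride lipase of fat, and to Mgll (ENSMUSG00000033174, chromosome 6, 88724412 to 88828360, plus strand), which encodes monoglyceride lipase. Lipe was at 282, 3.34, 140, 107 and 115 FPKM in SF_HPD, at 60.1, 192, 182, 72.2 and 143 FPKM in SF_ConD, and at 225, 90.3 and 89.5 FPKM in SC_ConD. SF_HPD 1 and SC_ConD 1 were the highest, and the 3 groups overlapped. Mgll was at 182, 2.23, 85.6, 106 and 66.4 FPKM in SF_HPD, at 32.1, 108, 103, 42.3 and 67.9 FPKM in SF_ConD, and at 206, 32.2 and 36.2 FPKM in SC_ConD. Its 2 highest values were again in SC_ConD 1 and SF_HPD 1, and the other SC_ConD libraries lay near the lowest SF_ConD library. Lipe lies wholly within an antisense gene model and Mgll overlaps 5 gene models, all at no more than 0.962 FPKM in any library. Aqp7 (ENSMUSG00000028427, chromosome 4, 41033074 to 41048139, minus strand) encodes the channel through which glycerol leaves the cell. Aqp7 was at 78.3, 0.286, 43.9, 43.8 and 31.4 FPKM in SF_HPD, at 12.97, 60.2, 58.2, 19.2 and 30.9 FPKM in SF_ConD, and at 92.6, 22.4 and 22.0 FPKM in SC_ConD, with the same high libraries as Mgll. The value in SF_HPD 2 rests on 7 reads, for which the exact 95% Poisson interval is 0.115 to 0.589 FPKM and covers counting error only.

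The coat and shape of the droplet are represented by Plin1 (ENSMUSG00000030546, chromosome 7, 79720218 to 79732903, minus strand), the gatekeeper perilipin of fat cells, and by Cidec (ENSMUSG00000030278, chromosome 6, 113424634 to 113435760, minus strand). Plin1 was at 424, 1.47, 186, 167 and 127 FPKM in SF_HPD, at 61.4, 225, 162, 68.2 and 80.9 FPKM in SF_ConD, and at 335, 121 and 68.8 FPKM in SC_ConD. The 4 SF_HPD libraries other than SF_HPD 2 all lay above 3 of the 5 SF_ConD libraries, and 3 of them lay between SC_ConD 1 and SC_ConD 2. Cidec was at 2672, 32.1, 1945, 574 and 2002 FPKM in SF_HPD, at 1170, 2945, 1283, 925 and 2082 FPKM in SF_ConD, and at 1424, 2732 and 2366 FPKM in SC_ConD. Outside SF_HPD 2 the lowest Cidec value was that of SF_HPD 4, the library rich in muscle and lymphoid markers, and the groups overlapped. Cidec averaged 1445 ± 1098 FPKM in SF_HPD (1799 ± 880, n = 4, without SF_HPD 2), 1681 ± 829 FPKM in SF_ConD and 2174 ± 675 FPKM in SC_ConD.

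The hormonal input is represented by Adrb3 (ENSMUSG00000031489, chromosome 8, 27225776 to 27250616, minus strand), the beta-adrenergic receptor typical of rodent fat cells, and by Pde3b (ENSMUSG00000030671, chromosome 7, 114415281 to 114539251, plus strand), the phosphodiesterase through which insulin lowers cyclic AMP. Adrb3 was at 105, 1.75, 71.3, 44.1 and 71.4 FPKM in SF_HPD, at 38.5, 93.1, 77.0, 34.8 and 51.9 FPKM in SF_ConD, and at 123, 98.7 and 66.0 FPKM in SC_ConD. SC_ConD 1 was the highest library, and the lowest SC_ConD library lay below 3 SF_HPD and 2 SF_ConD libraries. The means were 58.7 ± 38.5 FPKM in SF_HPD (73.0 ± 24.9, n = 4, without SF_HPD 2), 59.1 ± 25.2 FPKM in SF_ConD and 96.0 ± 28.7 FPKM in SC_ConD. Pde3b was at 113, 5.32, 28.1, 35.2 and 41.7 FPKM in SF_HPD, at 14.9, 38.0, 49.3, 21.3 and 37.7 FPKM in SF_ConD, and at 83.2, 15.7 and 24.7 FPKM in SC_ConD. SF_HPD 1 and SC_ConD 1 stood well above the rest of their groups. Adrb3 and Abhd5 overlap gene models on the other strand that were at no more than 1.33 FPKM in any library.

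SF_HPD against SF_ConD addresses what the high-protein diet changed during fragmented sleep, and none of the 10 genes passed the test. Limma on log2(FPKM + 1) called 0 of 14421 genes (0%) at an adjusted p under 0.05. At an unadjusted p under 0.05 it gave 273 genes (1.89%), 0 of them among the 10. Groups without overlap occurred in 66 genes (0.458%), again 0 of the 10. The largest difference was that of Cidec, with a log2 fold change of -1.09 (SE 1.06), and the intervals of all 10 genes included 0. Fold changes were negative in 8 of 10 genes, against 48.1% of all genes, with a median of -0.36 against 0.01 over all genes. G0s2 (0.34, SE 0.79) and Pde3b (0.05, SE 0.68) had positive values. Among the 11 adipocyte markers, 10 were negative, with a median of -0.73, and the median of these markers was 0.25 without SF_HPD 2. Without SF_HPD 2 the median of the 10 became 0.55, against -0.03 over all genes, and limma called 0 of all genes. Every one of the 10 fold changes was then positive, from 0.03 for Cidec to 0.95 for Plin1. Many of the 10 varied together between libraries, so their signs are not independent. In bulk tissue, fewer fat cells and less RNA per fat cell cannot be told apart.

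SF_ConD against SC_ConD addresses what fragmented sleep changed on chow. None of the 10 genes passed, and limma called 0 of 14421 genes (0%). An unadjusted p under 0.05 was found in 828 genes (5.74%), 0 of them among the 10, and 519 genes (3.60%) had no overlap between the groups, also 0 of the 10. The fold change was negative in 9 of the 10 genes, against 52.6% of all genes, with a median of -0.32 against -0.03 over all genes. The largest was that of Abhd5 (-0.78, SE 0.51), followed by G0s2 (-0.77, SE 0.91) and Adrb3 (-0.75, SE 0.95), while Mgll was at 0.02 (SE 1.10). Abhd5 had a limma adjusted p of 0.947, with an interval from -1.89 to 0.33. Among the 11 adipocyte markers, 9 were negative, with a median of -0.74. The median of the 10 turned to 0.40 without the lymphoid-rich libraries and to 0.28 without SC_ConD 1, and it was -1.24 without the libraries with liver transcripts, which leaves SC_ConD 1 as the only SC_ConD library.

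SF_HPD against SC_ConD sets fragmented sleep with the diet against normal sleep on chow. Limma again called 0 of 14421 genes (0%), and neither the 531 genes (3.68%) with an unadjusted p under 0.05 nor the 237 (1.64%) without overlap included any of the 10. The fold change was negative in 10 of 10 genes, against 48.2% of all genes, with a median of -0.71 against 0.02. Cidec was at -1.53 (SE 1.22), Adrb3 at -1.35 (SE 0.95) and Abhd5 at -0.89 (SE 0.51). Among the 11 adipocyte markers, 10 were negative, with a median of -1.34. Without SF_HPD 2 the median of the 10 genes was 0.32, against 0.02 over all genes and -0.49 in the adipocyte markers. Abhd5 stayed at -0.75, and Cidec and Adrb3 moved to -0.42 and -0.41. In the same setting Mgll was at 0.70, Pde3b at 0.53 and Plin1 at 0.52. The smallest adjusted p that any of the 10 genes reached in any comparison and alternative was 0.387, for Abhd5 in SF_ConD against SC_ConD without the libraries with a length trend. Each group enters 2 of the 3 comparisons, so their values are not independent.

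**Figure D2:**
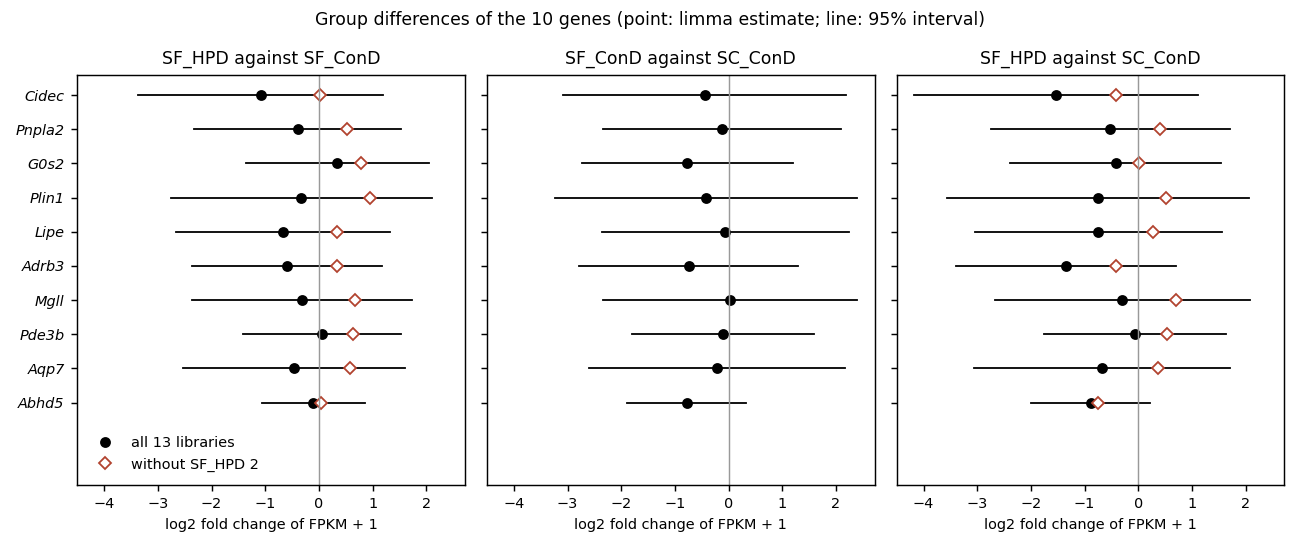
Log2 fold change of FPKM + 1 for each gene in the 3 comparisons, as the limma estimate with its 95% interval (black) and the estimate without SF_HPD 2 (open diamonds, where that group is compared). Every interval crosses 0, and the diamonds lie to the right of the black points in every row, furthest to the right for Plin1 (0.95) in the first panel.

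In SF_HPD 2 the 10 genes were not lowered alike. The lowest value among the other 12 libraries was 45.3 times that of SF_HPD 2 for Aqp7, 41.9 times for Plin1, 19.9 times for Adrb3, 18.0 times for Lipe, 17.9 times for Cidec, 14.4 times for Mgll and 11.9 times for Pnpla2. For Pde3b this factor was 2.81, for G0s2 it was 1.16, and for Abhd5 it was 0.598, since SF_HPD 4 was lower still. Among the 14421 genes kept, Plin1 stood at the 29.7 percentile in SF_HPD 2 and at no less than the 92.6 percentile in the other libraries. Abhd5 stood at the 75.2 percentile in SF_HPD 2, within its range in the other libraries, and G0s2 at the 89.3 percentile. Relative to the adipocyte marker mean of its library, in log2, Abhd5 was at -1.27 in SF_HPD 2 and at -4.79 to -3.88 in the SF_ConD and SC_ConD libraries. The 7 genes of bladder epithelium included Psca at 8653 FPKM in SF_HPD 2 and at no more than 3.64 FPKM elsewhere, and Upk3a, a uroplakin gene, at 6966 FPKM and at no more than 51.0 FPKM. The part of these transcripts in the values of the 10 genes was not tested.

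On the FPKM scale, across the 12 libraries without SF_HPD 2, 6 of the 10 genes varied closely together and 3 others varied with each other. Pnpla2, Lipe, Mgll, Plin1, Pde3b and Aqp7 were high and low in the same libraries, with Pearson r of log2(FPKM + 1) from 0.82 to 0.97 and a median of 0.91 over 15 pairs. Abhd5, G0s2 and Cidec were the second set, with r from 0.75 to 0.91 over 3 pairs. Between these sets, which were named after their values were seen, r ran from -0.27 to 0.36 with a median of 0.02 over 18 pairs. Adrb3 lay between, with r of 0.56 to 0.76 to the first set and 0.43 to 0.65 to the second. After rescaling each library to TPM (a scale on which every library has the same sum), r within the first set was 0.93 to 0.99. Within the second set it was 0.56 to 0.90 with a median of 0.66. Between the sets it was 0.07 to 0.74 with a median of 0.48. Adrb3 then had r of 0.88 to 0.96 with the first set and 0.34 to 0.79 with the second. The second set and its gap to the first thus depend on the scaling. The median r of each of the 10 genes with all other genes kept was between -0.08 and 0.03.

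Lipases that act in sequence varied together, with r = 0.879 (permutation p = 0.00018) and rho = 0.860 (permutation p = 0.00056) for Pnpla2 and Lipe. For Lipe and Mgll r was 0.908 (permutation p = 0.0001) and rho 0.888 (permutation p = 0.00031). Without the 2 libraries farthest from the median, r was 0.778 for Pnpla2 and Lipe and 0.863 for Lipe and Mgll. Mgll and Aqp7, the last lipase and the glycerol channel, had r = 0.966 (Spearman rho 0.944, permutation p = 2e-05, adjusted over 45 pairs 0.0003) and r = 0.940 without the 2 libraries farthest from the median. Lipe and Aqp7 had r = 0.951 (rho 0.944, permutation p = 1e-05, the smallest that 100000 permutations can give) and r = 0.931 without the farthest 2. Pnpla2 and Plin1 had r = 0.917 (rho 0.923, permutation p = 3e-05) and r = 0.826 without the farthest 2. On the FPKM scale r was near 0 between the lipase and its partners. Pnpla2 had r = 0.0605 with its co-activator Abhd5 (rho -0.028, permutation p = 0.854). With its inhibitor G0s2, Pnpla2 had r = 0.0502 (rho 0.028, permutation p = 0.876). After rescaling to TPM, r was 0.520 with Abhd5 and 0.212 with G0s2, so these values depend on the scaling. Abhd5 and G0s2 had r = 0.819 on the FPKM scale (rho 0.888, permutation p = 0.00101) and r = 0.656 after rescaling to TPM. Of the 45 pairs, 23 had an adjusted p under 0.05 for r and 21 for rho. With each group centred on its own mean, the first set kept a median r of 0.91 and the values between the sets a median of -0.04.

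**Figure D3:**
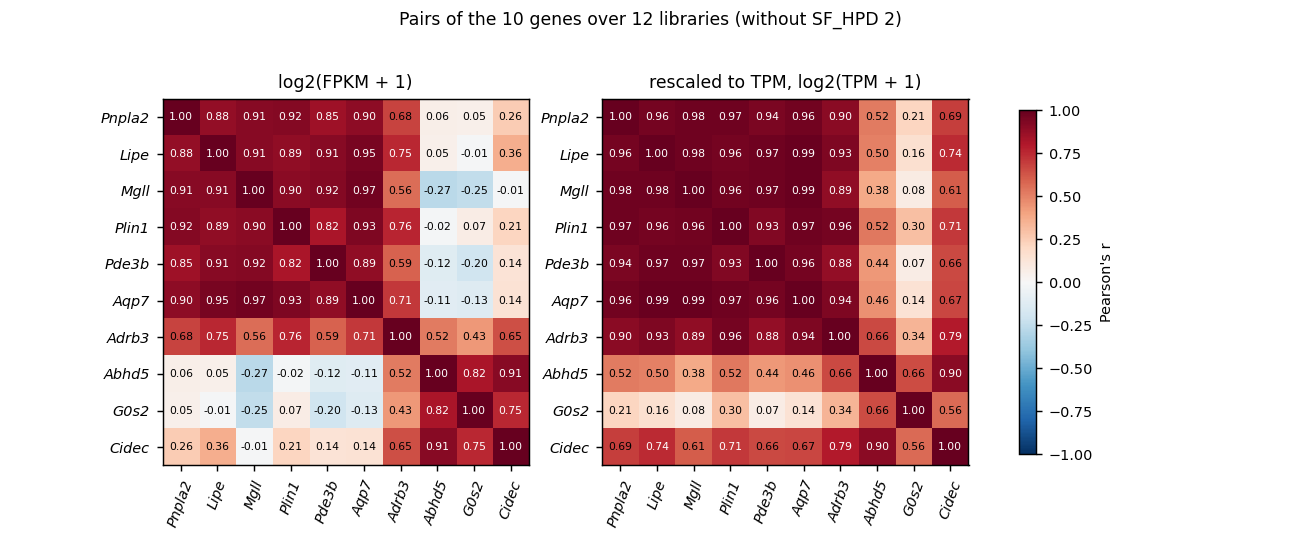
Pearson r between the 10 genes over the 12 libraries without SF_HPD 2, on log2(FPKM + 1) at left and after rescaling to TPM at right, with red for positive and blue for negative r. The 6 genes from Pnpla2 to Aqp7 form a red block in both panels, and their cells with Abhd5, G0s2 and Cidec are pale at left and mostly red at right.

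On the FPKM scale the second set followed the adipocyte markers closely. Over the same 12 libraries Abhd5 had r = 0.934 with the adipocyte marker mean (rho 0.958, permutation p = 1e-05, 1e-04 after adjustment over 10 relations), Cidec r = 0.932 (rho 0.902, permutation p = 2e-05) and G0s2 r = 0.882 (rho 0.895, permutation p = 0.00017). Without the 2 farthest libraries, SF_HPD 4 and SF_ConD 4, these were 0.909, 0.882 and 0.832. Adrb3 had r = 0.673 (rho 0.552, permutation p = 0.018, adjusted 0.0451), and r = 0.423 without the farthest 2, so that relation rests on those libraries. For Pnpla2, Lipe, Mgll, Plin1, Pde3b and Aqp7, r was between -0.08 and 0.25, and none of the 6 passed. After rescaling to TPM, these 6 had r of 0.716 to 0.847, Adrb3 0.904, Abhd5 0.856, Cidec 0.936 and G0s2 0.626, the lowest of the 10. The contrast between the sets in this relation thus depends on the scaling.

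**Figure D4:**
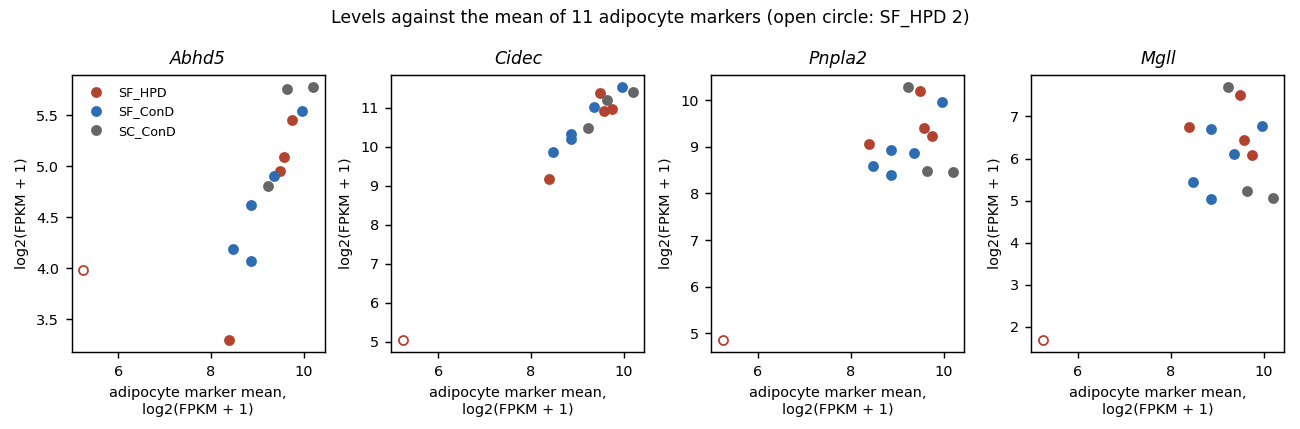
Log2(FPKM + 1) of Abhd5, Cidec, Pnpla2 and Mgll against the mean log2(FPKM + 1) of 11 adipocyte markers, with 1 point per library coloured by group and SF_HPD 2 as an open circle. Abhd5 and Cidec climb along the axis among the filled points, with r of 0.934 and 0.932. Pnpla2 and Mgll do not, with r of 0.201 and -0.0802. After rescaling to TPM (not drawn) r was 0.856 for Abhd5, 0.936 for Cidec, 0.792 for Pnpla2 and 0.719 for Mgll.

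Ratios of 2 genes within a library, in which the library's FPKM divisor cancels, set the lipase and coat genes against their partners. The ratio of Pnpla2 to its inhibitor G0s2 was 5.48, 0.534, 1.69, 8.69 and 0.970 in SF_HPD, 2.04, 2.99, 6.14, 4.73 and 3.18 in SF_ConD, and 11.7, 0.466 and 2.12 in SC_ConD. The groups overlapped fully, and the 4 highest ratios were those of the libraries with a length trend (5.48 to 11.7, against 0.466 to 4.73 in the other 8 without SF_HPD 2). The ratio of Pnpla2 to Abhd5 was 30.7 to 60.0 in those 4 libraries and 6.54 to 22.4 in the other 8. The ratio of Plin1 to Abhd5 was 10.3 to 18.9 against 1.30 to 5.62, and that of Cidec to Plin1 was 3.44 to 7.90 against 10.5 to 34.4. The genes in these ratios differ in length in both directions: Pnpla2 (3020 bases) is longer than G0s2 (871 bases) and shorter than Abhd5 (5956 bases), and Plin1 has 4649 bases and Cidec 1856. Ratios within the first set did not separate these libraries: Lipe to Pnpla2 was 0.181 to 0.375 against 0.180 to 0.309, and Mgll to Lipe 0.568 to 0.988 against 0.357 to 0.613. The 4 libraries with a length trend also had the highest endothelial marker means. The parts of the length profile and of endothelial content in the levels of the 10 genes were not tested.

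**Figure D5:**
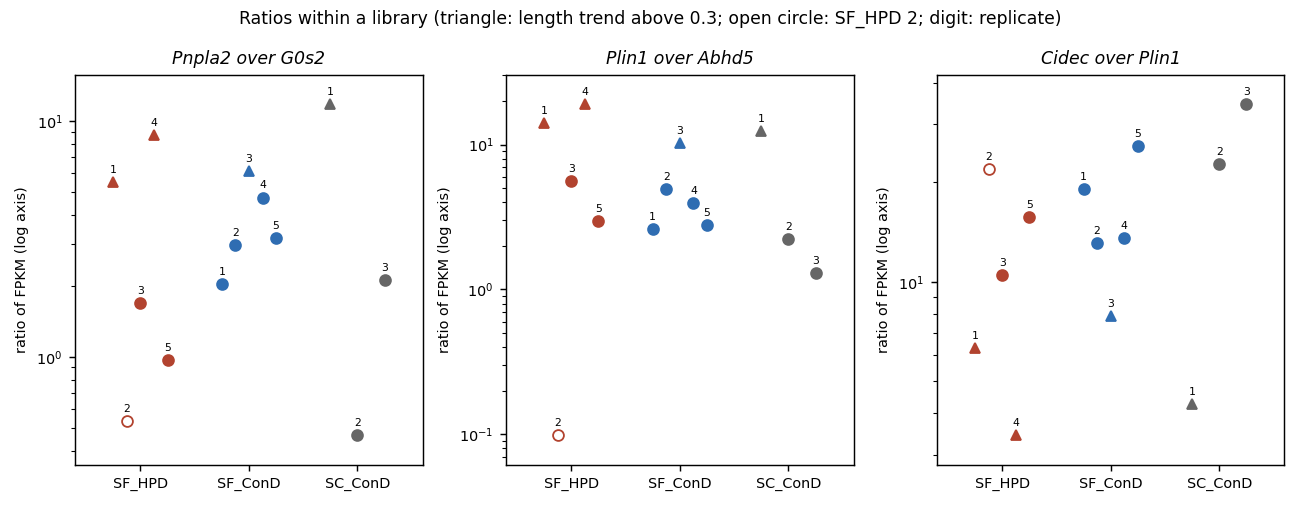
Ratio of FPKM within each library on a log axis for Pnpla2 over G0s2, Plin1 over Abhd5 and Cidec over Plin1, by group, with the replicate number beside each point, triangles for libraries with a length trend above 0.3 and an open circle for SF_HPD 2. In the first and second panels the 4 triangles lie above all circles, and in the third they lie below them.

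Within SF_ConD, 7 of the 10 genes were lower in all 3 lymphoid-rich libraries (SF_ConD 1, 4 and 5) than in both others (SF_ConD 2 and 3), against 1606 of 14421 genes (11.1%). Lipe was at 60.1 to 143 FPKM in the lymphoid-rich libraries, against 182 to 192 FPKM in the other 2, and Plin1 at 61.4 to 80.9 FPKM, against 162 to 225 FPKM. Abhd5, G0s2 and Cidec were the exceptions. SF_ConD 3 lay below all 3 lymphoid-rich libraries for Abhd5 (15.8 FPKM) and G0s2 (79.0 FPKM), and among them for Cidec (1283 FPKM). The summed FPKM of 12 B cell and lymph node markers ran from 2.35 to 1178 in SF_HPD, 3.10 to 2635 in SF_ConD and 2.87 to 16.6 in SC_ConD. SF_ConD 3 also had a length trend, and SF_ConD 2 had the highest adipocyte marker mean of SF_ConD (9.95). Most of the 7 genes varied closely together, so they are not separate results. The parts of lymph node content, length trend and adipocyte content in these differences were not tested.

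Genes around the 10 in the same pathways also gave no call by limma in any comparison, in any of 4 lists chosen with earlier results known. Of the adrenergic and cyclic AMP genes, 14 of 15 were tested, and the median fold change was 0.05 for SF_HPD against SF_ConD, 0.04 for SF_ConD against SC_ConD and 0.00 for SF_HPD against SC_ConD. Without SF_HPD 2 the medians of the SF_HPD comparisons were 0.57 against SF_ConD and 0.62 against SC_ConD, with 0 genes of any of the 4 lists called. The adenylyl cyclase gene Adcy9 was at 0.553 ± 0.382 FPKM in SF_ConD (SD, n = 5) and 2.92 ± 1.11 FPKM in SC_ConD (SD, n = 3), without overlap, with a log2 fold change of -1.33 (SE 0.55, limma adjusted p = 0.861). In SF_HPD, Adcy9 was at 2.08 ± 2.33 FPKM, with a fold change of 0.65 (SE 0.47) against SF_ConD (0.94, SE 0.45, without SF_HPD 2) and -0.68 (SE 0.55) against SC_ConD (-0.38, SE 0.51, without it). Adcy5 was at 10.3 ± 10.2 FPKM in SF_HPD and 4.35 ± 1.65 FPKM in SF_ConD, a fold change of 0.70 (SE 0.55), and 1.10 (SE 0.49) without SF_HPD 2. The cyclase gene Adcy3 had a fold change of 0.82 (SE 0.82) in SF_HPD against SC_ConD, and 1.32 (SE 0.74) without SF_HPD 2.

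Of 20 genes of antilipolytic receptors and the insulin arm, all were tested, with medians of 0.17, -0.18 and 0.03 in the 3 comparisons in the same order. Without SF_HPD 2 the SF_HPD medians were 0.48 against SF_ConD and 0.22 against SC_ConD. Npr3, the clearance receptor for natriuretic peptides, was at 9.18 ± 7.42 FPKM in SF_HPD, 2.01 ± 1.21 FPKM in SF_ConD and 14.1 ± 9.95 FPKM in SC_ConD. It lay in SF_ConD below every SC_ConD library, with a log2 fold change of -2.22 (SE 0.77, limma adjusted p = 0.787). In SF_HPD against SF_ConD the log2 fold change of Npr3 was 1.28 (SE 0.67), and 1.83 (SE 0.55) without SF_HPD 2. Against SC_ConD it was -0.94 (SE 0.77), and -0.38 (SE 0.63) without SF_HPD 2. Adra2a, an inhibitory adrenergic receptor, was at -0.96 (SE 0.56) in SF_HPD against SF_ConD, and at -0.77 (SE 0.59) without SF_HPD 2. Gnai1, an inhibitory G protein subunit, was at -1.02 (SE 0.72) in SF_ConD against SC_ConD, and the phosphodiesterase gene Pde4d at 0.64 (SE 0.50) in SF_HPD against SC_ConD (0.87, SE 0.49, without SF_HPD 2).

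Of 20 other lipid droplet genes, 18 were tested, with medians of 0.01, -0.15 and -0.12, and SF_HPD medians of 0.13 against SF_ConD and 0.12 against SC_ConD without SF_HPD 2. Pnpla3, a relative of Pnpla2, was at 6.40 ± 4.05 FPKM in SF_HPD, 28.9 ± 33.8 FPKM in SF_ConD and 23.3 ± 17.3 FPKM in SC_ConD, and its log2 fold change was -1.80 (SE 0.77) against SF_ConD and -1.83 (SE 0.89) against SC_ConD. Without SF_HPD 2, where Pnpla3 was at 0 FPKM, these were -1.17 (SE 0.65) and -1.20 (SE 0.74). Plin2, the droplet coat protein of most cell types, was at 101 ± 50.0 FPKM in SF_HPD, 93.1 ± 35.6 FPKM in SF_ConD and 155 ± 39.5 FPKM in SC_ConD, a fold change of -0.76 (SE 0.52) in SF_HPD against SC_ConD, and -0.62 (SE 0.53) without SF_HPD 2. Cidea, a relative of Cidec typical of brown fat, was at 937 FPKM in SF_HPD 5 and at 2.88 to 136 FPKM in the other SF_HPD libraries, against 64.5 to 460 FPKM in SF_ConD. Its log2 fold change was -2.09 (SE 1.47), and -1.26 (SE 1.45) without SF_HPD 2, while SF_HPD 5 alone set the mean of SF_HPD (221 ± 404 FPKM) above that of SF_ConD (205 ± 159 FPKM). In SF_ConD against SC_ConD, where it was at 101 ± 150 FPKM in SC_ConD, its fold change was 2.53 (SE 1.70). Of 18 triglyceride synthesis genes, 17 were tested, with medians of -0.11, -0.06 and -0.37, and SF_HPD medians of 0.21 against SF_ConD and 0.11 against SC_ConD without SF_HPD 2. The monoglyceride acyltransferase gene Mogat1 was at 5.43 ± 4.39 FPKM in SF_HPD, 8.83 ± 6.13 FPKM in SF_ConD and 23.5 ± 18.8 FPKM in SC_ConD, with a fold change of -2.01 (SE 0.76) in SF_HPD against SC_ConD, and -1.49 (SE 0.65) without SF_HPD 2. Its fold change in SF_HPD against SF_ConD was -0.82 (SE 0.66), and -0.30 (SE 0.57) without SF_HPD 2. The lipin gene Lpin2 was at -1.02 (SE 0.44) in SF_HPD against SC_ConD, and at -1.09 (SE 0.46) without SF_HPD 2. The glycerol kinase gene Gk was at 0.53 (SE 0.38) in SF_HPD against SF_ConD (0.67, SE 0.40, without SF_HPD 2) and at -0.90 (SE 0.44) in SF_ConD against SC_ConD. Mogat2 was at -0.88 (SE 0.51) in SF_ConD against SC_ConD.

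The genes most like the mean log2(FPKM + 1) of the 10 over 13 libraries were Cd36 (r = 0.971), Slc1a5 (0.968), Car4 (0.966), Cebpa (0.966) and Angptl4 (0.966), among 9887 candidates with a median r of -0.01. SF_HPD 2, where the mean of the 10 is lowest, is among those libraries. Over the 12 other libraries the list was Mgat4b (0.944), Cyb5b (0.936), Hsd17b4 (0.935), Ap2a2 (0.927) and Peli2 (0.925), and none of the first 5 was among them. These values are a description, since the genes were picked for their likeness.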

How the data were processed

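The authors deposited 1 table of FPKM per gene and library, with names, positions and lengths of genes. The submitters' processing notes list featureCounts 1.5.0-p3, HISAT2 2.0.5 and CASAVA, with no roles, and mm8 as the build. The table's starts and ends equal those of the GRCm38 annotation used here for 53499 of 54532 genes and for all 10 genes described, so positions are on GRCm38. The sources used here give neither the strand setting nor the FPKM divisor, which came to 0.479 to 1.23 of the reads of each library, and FPKM sums differed 5.03-fold between libraries.

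FPKM times length, divided by a library's smallest step, gave whole reads (within 0.05) for 100% of values, 7 to 105897 reads for each of the 10 genes in a library. The main test was limma 3.58.1 in R 4.3.3 (trend and robust eBayes) on log2(FPKM + 1), which understates changes of low genes. It used all 13 libraries, the 14421 genes that reached 1 FPKM in 3 or more libraries, a two-sided test and a threshold of 0.05 on p adjusted over those genes after Benjamini and Hochberg. The labels state individual mice, and p-values measure the spread between them. The limma steps were tested on simulated data. There all libraries were drawn from the same pooled profile, without differences in tissue content or length trend. That test checks the steps and does not measure their power on these libraries. Correlations between genes, over 12 libraries without SF_HPD 2, had two-sided tests of 100000 permutations. That set of libraries, the list of bladder genes and the values of the other lists without SF_HPD 2 were chosen after seeing the data.

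The 10 genes and all lists were chosen with earlier results of these data known. Named from the other lists were genes that passed or, otherwise, the 2 with the smallest p per list and comparison. The values of 1 gene that this rule picks are not reported here. Named as most like the 10 were the 5 genes with the highest r, among those with a mean of at least 2 FPKM. Same-numbered libraries of SF_HPD and SC_ConD deviated together from their group means (correlations 0.711, 0.333 and 0.191, each over 0.1). In the other comparisons not every correlation was over 0.1. The libraries numbered 1 in SF_HPD and SC_ConD both had a length trend. Because the labels give no source of a pairing, the main test was unpaired. The replicate number entered as a block in an alternative only. Alternatives were other scalings, filters, pseudocounts and covariates, limma-voom on recovered reads, a replicate block and leaving out libraries. Promoters were read from RefSeq on GRCm38.p6.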

Additional observations from a re-analysis of the deposited data

Results flagged for a closer look

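In SF_HPD, 1 library lay far from the other 4 for 6 of the 10 genes, and it was SF_HPD 2 each time. Its level was 28.0 FPKM for Pnpla2, 3.34 FPKM for Lipe, 2.23 FPKM for Mgll, 1.75 FPKM for Adrb3, 1.47 FPKM for Plin1 and 0.286 FPKM for Aqp7. In each case the gap to the nearest library, divided by the range of the group (on the log2 scale), was 0.753 to 0.784, above the critical value of 0.71 for 5 libraries. Chance gives about 1 such result in 20 groups, and 20 groups (10 genes in SF_HPD and SF_ConD) were examined. The 6 results come from the same library and from genes that varied together, so they are not independent of each other. The adipocyte marker mean was also lowest in SF_HPD 2.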

How the results depend on the processing

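None of the 10 genes passed limma in any alternative, and their adjusted p ranged from 0.712 to 1 in SF_HPD against SF_ConD, 0.387 to 1 in SF_ConD against SC_ConD and 0.545 to 1 in SF_HPD against SC_ConD. The log2 fold changes of the 10 genes under alternatives kept their sign in 194 of 220, 153 of 200 and 178 of 200 cases in these comparisons. With the replicate number as a block, limma called 0 genes in each comparison, and Mgll alone changed sign (-0.14 in SF_ConD against SC_ConD), so the block changed no call. Without the 4 libraries with a length trend, limma called 162 genes in SF_ConD against SC_ConD and 172 in SF_HPD against SC_ConD, 0 of the 10 among them. That setting leaves SC_ConD 2 and 3, both with liver transcripts, as the SC_ConD group, as does leaving out SC_ConD 1. Leaving out 1 library gave 0 to 1 genes called in SF_HPD against SF_ConD, 0 to 194 in SF_ConD against SC_ConD and 0 to 196 in SF_HPD against SC_ConD, the highest without SC_ConD 1 in the last 2. TPM rescaling moved the median of all genes to 0.16 in SF_ConD against SC_ConD and 0.25 in SF_HPD against SC_ConD. The planned count-model test on recovered reads was not run, because the deposited unit is FPKM. With 3 to 5 libraries a group, the median SE over the 10 was 0.91 to 1.05. The causes of the sign changes below were not tested.

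In SF_HPD against SF_ConD, the sign of Pde3b turned with limma-voom (-0.0811), without the lymphoid-rich libraries (-0.69), without a length trend (-0.45) and with that trend as a covariate (-0.0984), and that of Abhd5 without a length trend (0.0285). With the adipocyte marker mean as a covariate, Pnpla2 (0.20), Mgll (0.29), Abhd5 (0.11), Adrb3 (0.0478), Plin1 (0.50) and Aqp7 (0.20) turned. Leaving out 1 library gave ranges of -0.81 to 0.52 for Pnpla2, -1.16 to 0.34 for Lipe, -0.78 to 0.68 for Mgll, -0.33 to 0.21 for Abhd5, -0.98 to 0.34 for Adrb3, -0.91 to 0.95 for Plin1, -0.41 to 0.63 for Pde3b, -0.11 to 0.78 for G0s2, -1.56 to 0.0271 for Cidec and -0.90 to 0.58 for Aqp7.

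In SF_ConD against SC_ConD, TPM rescaling turned Pnpla2 (0.12), Lipe (0.18), Pde3b (0.12) and Aqp7 (0.0167), and limma-voom the same 4 genes (0.15, 0.22, 0.17 and 0.0462). Without the lymphoid-rich libraries Pnpla2 (0.38), Lipe (0.61), Plin1 (0.44), Pde3b (0.42) and Aqp7 (0.70) turned, and without a length trend the same 5 (0.48, 0.22, 0.0379, 0.39 and 0.23). Without the libraries with liver transcripts, which leaves SC_ConD 1 alone in its group, assumed to vary like the other groups, Mgll (-1.68), G0s2 (0.39) and Cidec (0.11) turned. With the adipocyte marker mean as a covariate Pnpla2 (0.44), Lipe (0.57), Plin1 (0.35), Pde3b (0.23), Cidec (0.33) and Aqp7 (0.41) turned, and with the length trend Lipe (0.0551) and Pde3b (0.018). Leaving out 1 library gave -0.43 to 0.48 for Pnpla2, -0.29 to 0.37 for Lipe, -0.44 to 0.88 for Mgll, -0.94 to 0.20 for Plin1, -0.60 to 0.57 for Pde3b, -1.35 to 0.0622 for G0s2 and -0.56 to 0.46 for Aqp7.

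In SF_HPD against SC_ConD, Pde3b turned with TPM rescaling (0.21) and limma-voom (0.0915), and G0s2 without the libraries with liver transcripts (0.73), again against SC_ConD 1 alone. With the adipocyte marker mean as a covariate Pnpla2 (0.65), Lipe (0.57), Mgll (0.88), Plin1 (0.84), Pde3b (0.64), G0s2 (0.52), Cidec (0.0844) and Aqp7 (0.61) turned. Leaving out 1 library gave -0.94 to 0.40 for Pnpla2, -1.23 to 0.28 for Lipe, -0.76 to 0.70 for Mgll, -1.34 to 0.52 for Plin1, -0.55 to 0.62 for Pde3b, -1.01 to 0.41 for G0s2 and -1.12 to 0.37 for Aqp7.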
